A study of Rattus norvegicus with 90 samples.

Results

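The comparison set microglia of young rats that had been injured by inflammation and then given human cells against microglia of rats that had neither. It holds 12 of the 90 libraries of the series: 9 treated libraries and 3 control libraries, all from 1 sequencing run of 15 libraries, and all genes were examined. The animals were male Wistar Han rats. Treated rats had interleukin-1β (IL-1β) at 20 µg/kg into the abdomen from postnatal day (P) 1 to P5 and then, at P20, an intravenous injection of human umbilical cord mesenchymal stromal cells (HuMSC), at 20, 50 or 125 M (mega) cells/kg with 3 libraries a dose. Control rats had PBS in place of both agents. The other 3 libraries of the run came from injured rats, which had IL-1β and then PBS, and they entered the fit because all 5 groups share its estimate of the spread. In every group, tissue was taken at P22, 48 h after the cells or PBS, from perfused brain without olfactory bulbs and cerebellum, and microglia were enriched with magnetic beads against CD11b/c. The treated group differs from the control group by both IL-1β and the cells, so this comparison alone does not separate their shares.

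Microglia are the resident macrophages of the brain, and in the newborn they prune synapses, clear dying cells and take part in myelination and vessel growth. IL-1β is an inflammatory cytokine that is released after caspase-1 cuts its precursor inside a protein assembly called the inflammasome, which also matures interleukin-18. Mesenchymal stromal cells are adherent cells of connective tissue, studied as a treatment because the factors they release act on immune cells. CD11b is also carried by other myeloid cells, and bead enrichment can carry over fragments of vessels and other brain cells.

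Libraries held 20.23 to 24.38 M counts in the treated group (median 21.48) and 16.71 to 19.97 M counts in the control group (median 19.63). Levels are given as CPM, a gene's counts per 1 M counts of the library, after scaling by edgeR's trimmed mean of M values (TMM), and differences as log2 fold changes, treated over control, with their standard errors. Microglial markers were abundant in all libraries. Their summed level ran from 28760 to 35110 CPM in treated libraries (median 31410) and from 34290 to 36850 CPM in control libraries (median 35290). The groups overlapped, but the treated median lay below the lowest control library and the control median above the highest treated library. Control replicate 1 lay farthest out on the first principal component, at 57.78 against -35.48 to 20.02 for the other libraries of the run, and had the highest share of mitochondrial counts, 5.325%. The main counts, and the genes given with full statistics, are therefore also given without it. Because the tissue was measured in bulk, fewer cells of a type and less RNA per cell cannot be told apart. Nothing in the labels says that libraries of a group came from separate animals, so the p-values measure only the spread between these libraries.

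Casp1, Ifi44 and Il18, which are described with the genes that fell, are shown here by their promoters because Ifi44 is a textbook interferon-induced gene and the other 2 encode the enzyme and the cytokine of the inflammasome. Each stretch runs 5′ to 3′ from 250 bases before to 50 after the start of transcription and comes from RefSeq on the rat build GRCr8. Capitals mark a core of the interferon-stimulated response element, searched as GAAA, any 2 bases and GAAA again, which reads TTTC, any 2 bases and TTTC on the other strand. In GRCr8 the Casp1 stretch lies at chr8:10872580-10872879 on the plus strand, the Ifi44 stretch at chr2:243303791-243304090 on the minus strand and the Il18 stretch at chr8:59801822-59802121 on the plus strand.
Casp1: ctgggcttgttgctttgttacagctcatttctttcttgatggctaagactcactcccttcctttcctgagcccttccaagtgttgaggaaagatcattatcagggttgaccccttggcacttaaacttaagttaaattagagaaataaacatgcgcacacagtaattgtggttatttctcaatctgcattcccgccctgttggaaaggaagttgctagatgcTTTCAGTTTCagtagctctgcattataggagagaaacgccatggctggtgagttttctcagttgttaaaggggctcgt
Ifi44: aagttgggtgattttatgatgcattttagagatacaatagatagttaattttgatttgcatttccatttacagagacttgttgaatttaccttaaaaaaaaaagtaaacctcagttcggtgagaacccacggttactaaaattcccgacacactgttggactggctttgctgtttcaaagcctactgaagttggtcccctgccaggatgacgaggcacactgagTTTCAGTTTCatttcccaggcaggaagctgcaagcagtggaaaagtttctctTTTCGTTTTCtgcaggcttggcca
Il18: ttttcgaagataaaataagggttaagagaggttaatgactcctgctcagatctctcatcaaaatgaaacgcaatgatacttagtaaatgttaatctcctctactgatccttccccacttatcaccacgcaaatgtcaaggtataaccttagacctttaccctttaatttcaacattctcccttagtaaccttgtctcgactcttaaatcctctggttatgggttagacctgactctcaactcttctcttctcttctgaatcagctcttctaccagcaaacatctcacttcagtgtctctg
The Casp1 promoter held 1 match, beginning 28 bases before the start, and the Ifi44 promoter held 2, beginning 26 bases before and 26 bases after it. The Il18 promoter held no match in this window. Among all 33469 RefSeq promoters of the same length, 3.92% held the motif on either strand. Of the genes tested below, 5.39% of the 167 promoters of genes called lower and 1.22% of the 164 promoters of genes called higher held it, against 3.17% over all 10187 tested genes with a promoter. These matches describe letters and say nothing of binding.

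Treated and control microglia were compared by edgeR's quasi-likelihood test with Benjamini-Hochberg adjustment over 14032 genes. At an adjusted p under 0.05, 505 genes were called (3.6% of those tested), 257 higher (1.83%) and 248 lower (1.77%) in treated libraries. The median log2 fold change of the genes called higher was 0.93, and that of the genes called lower was -0.41. For 747 genes (5.32%) the groups did not overlap, with all treated libraries above all controls for 412 (2.94%) and below them for 335 (2.39%), and 330 of the 747 were among the called genes. The calls rested on few libraries. Without control replicate 1, 4 genes were called in all, namely Casp4, Abcc5, Mapk8ip3 and Lmln2, and each had been among the 505. Control replicate 1 had been the lowest control for 176 of the 257 genes called higher and the highest control for 110 of the 248 called lower. Of the 505 genes, 20 were still called without replicate 1 of the 125 M dose, 44 without control replicate 3, 56 without replicate 2 of the 50 M dose, 119 without replicate 3 of the 125 M dose, 188 without replicate 1 of the 20 M dose, 224 without replicate 1 of the 50 M dose, 314 without control replicate 2 and 329 without replicate 3 of the 20 M dose. Other omissions kept most of them, with 446 of the 505 called again without replicate 3 of the 50 M dose, 498 without replicate 2 of the 20 M dose and 500 without replicate 2 of the 125 M dose, among totals of 579, 977 and 1043 calls. A fit of the treated and control libraries alone called 2 genes, Casp4 and Slfn13. Scaling by total counts in place of TMM called 23 genes, 9 higher and 14 lower, whereas DESeq2 called 1549 genes, 494 of the 505 among them.

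**Figure D1:**
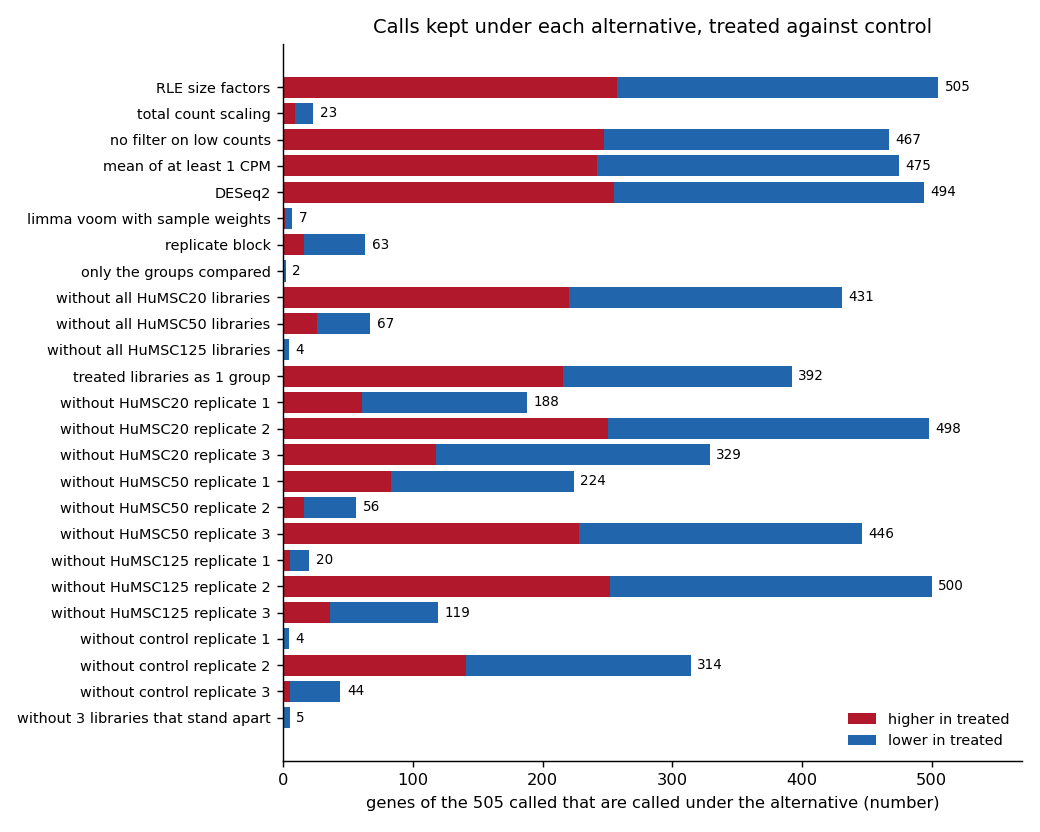
Each bar gives, for 1 alternative analysis, how many of the 505 genes called between treated and control libraries were called again, split into genes higher (red) and lower (blue) in treated libraries. Counts run from 2, when only treated and control libraries were fitted, to 505, with DESeq2-type size factors (RLE).

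Over 25 alternatives, 2 genes were called in at least 24, 11 genes in at least 20 and 69 genes in at least 15. Of the 11 genes, 9 were lower and 2 were higher in treated libraries, and of the 69 genes, 49 were lower and 20 were higher. The 11 genes were Casp4, Slfn13, Abcc5, Bsg, Dux4, Ifi44, Il18 and Tubb6, which are described below, and 3 small RNA genes, RF00055 and 2 entries named RF00016. Both Mapk8ip3, at -0.49 ± 0.09, and Lmln2, at -0.67 ± 0.12, were called lower in 18 of the 25 alternatives.

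Casp4, an inflammatory caspase that senses bacterial lipopolysaccharide inside the cell, was the most steadily called gene. Its level was 55.7 CPM in the lowest treated library, 58.9 CPM in the median one and 65.6 CPM in the highest, against 93.7, 87.1 and 83.0 CPM in control replicates 1 to 3. All treated libraries lay below all controls. The means were 60.2 ± 3.47 CPM in treated libraries (SD, n = 9) and 87.9 ± 5.39 CPM in controls (SD, n = 3), a log2 fold change of -0.55 ± 0.06 with an adjusted p of 0.00217 by edgeR's quasi-likelihood test. Casp4 was called under all 25 alternatives, with log2 fold changes between -0.59 and -0.48 and a highest adjusted p of 0.0358.

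Slfn13, a Schlafen family protein known in human cells to cut transfer RNA, had 60.0, 88.6 and 101 CPM in the lowest, median and highest treated library, against 196.1, 171.3 and 167.0 CPM in the controls. The groups were far from overlapping, with the highest treated library well under the lowest control. Its log2 fold change was -1.08 ± 0.13 with an adjusted p of 0.0079 in edgeR. It was called in 24 of the 25 alternatives, and without control replicate 1 it stood at -1.02 with an adjusted p of 0.0725.

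Il18, the cytokine matured by caspase-1, had 57.1, 70.6 and 76.4 CPM in the lowest, median and highest treated library, against 124.2, 99.8 and 95.0 CPM in the controls. All treated libraries lay below all controls, and control replicate 1 was the highest library. The log2 fold change was -0.66 ± 0.11 with an adjusted p of 0.0236 in edgeR, and without control replicate 1 it was -0.55 at an adjusted p of 0.106.

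Casp1, whose promoter is shown above and whose call held less often, had 79.1, 86.9 and 102.1 CPM in the lowest, median and highest treated library, against 114.9, 110.0 and 103.5 CPM in the controls. The ranges came close without overlapping. Its log2 fold change was -0.29 ± 0.07 with an adjusted p of 0.0486 in edgeR, near the threshold, and without control replicate 1 it was -0.26 at an adjusted p of 0.206. It was called in 8 of the 25 alternatives.

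Mefv, which encodes pyrin, a sensor of another inflammasome, was called lower at -0.41 ± 0.10, and Naip2, a sensor of bacterial proteins, at -0.35 ± 0.09. Naip2 belongs to a family of near copies, and the sources used here do not say how reads shared between copies were counted. The treated libraries lay below all controls for Mefv, with 15.6 to 21.0 CPM in treated libraries against 22.5 to 28.4 CPM in controls, and overlapped with them for Naip2, with 49.9 to 62.3 CPM in treated libraries against 60.8 to 88.2 CPM in controls. In a list of 22 inflammasome and interleukin-18 pathway genes, chosen after values had been seen, these 2 and Casp1, Casp4 and Il18 were the 5 called lower, and none was called higher, where 1.77% and 1.83% of all genes were. The median log2 fold change was -0.13 in the list and -0.01 over all genes. Since the list was chosen with values in view, neither its count nor its median is a test of it. The sensor Nlrp3 stood at 0.07 ± 0.08, the pore-forming Gsdmd at -0.03 ± 0.08 and the adaptor Pycard at -0.11 ± 0.12, and none of the 3 was called. Without control replicate 1 the list held 1 call, Casp4, and it held 2 without control replicate 3 and without each of 5 single treated libraries, and 3 without control replicate 2.

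Ifi44, whose promoter holds 2 matches to the motif, had 22.9, 27.5 and 32.3 CPM in the lowest, median and highest treated library, against 44.3, 38.0 and 38.9 CPM in the controls. The groups did not overlap. Its log2 fold change was -0.59 ± 0.09 with an adjusted p of 0.0236 in edgeR, and without control replicate 1 it was -0.53 at an adjusted p of 0.101. Trim5, an antiviral restriction factor, was also called lower, with 101.9 to 127.4 CPM in treated libraries against 138.4 to 161.6 CPM in controls and a log2 fold change of -0.39 ± 0.07, which was -0.35 without control replicate 1 (adjusted p 0.106 in edgeR). The list of interferon response genes holds neither Ifi44 nor Trim5. In it, 0 of 25 tested passed in either direction by edgeR, 4 had an unadjusted p under 0.05 and DESeq2 called 1 lower. The list's median was -0.14, and -0.07 without control replicate 1.

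**Figure D2:**
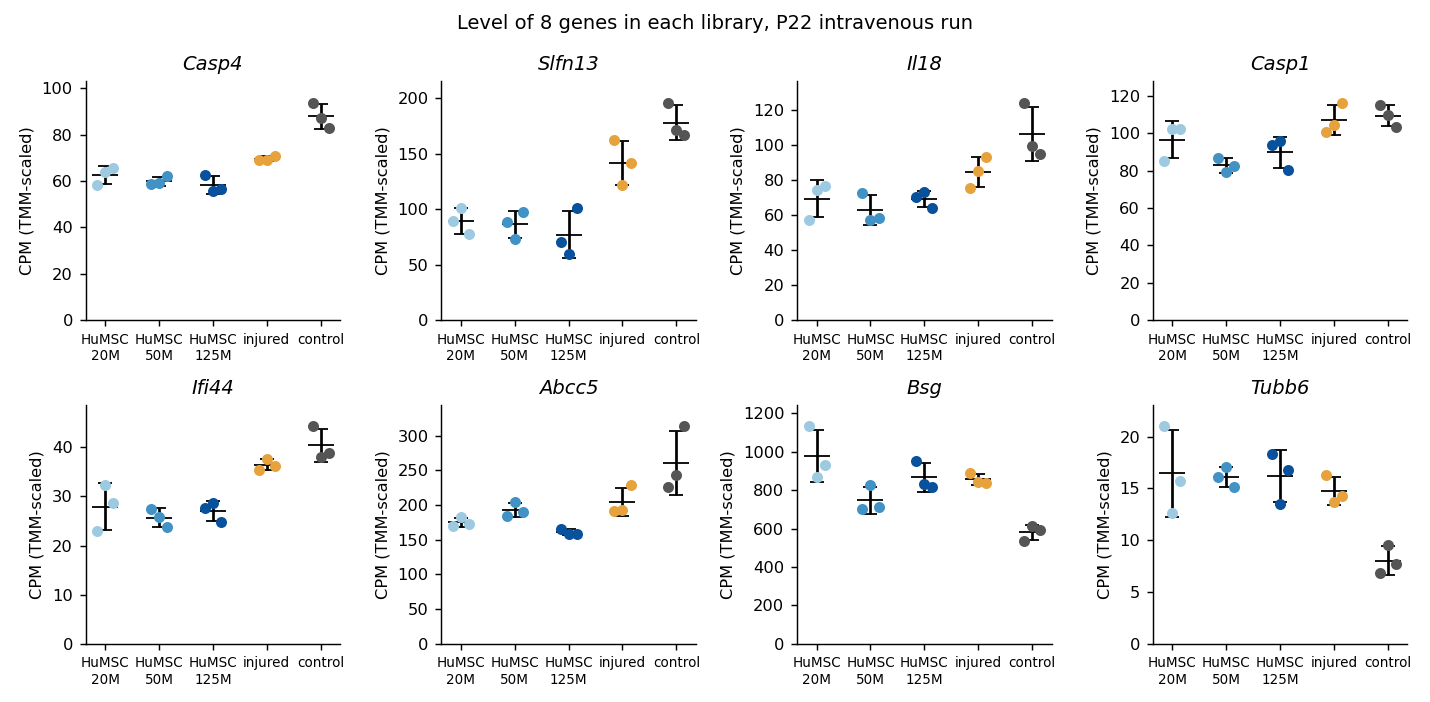
Level (CPM, TMM-scaled, axis from 0) of 8 genes in each library, with points for libraries, a line for each group's mean and bars for its SD (n = 3 a group). For Casp4, Slfn13, Il18, Casp1, Ifi44 and Abcc5 all 9 treated points lie below the 3 control points, and for Bsg and Tubb6 all lie above them.

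Further genes of immune and transport function were called lower. Abcc5, an exporter of cyclic nucleotides and other organic anions, had 157.6, 172.8 and 203.9 CPM in the lowest, median and highest treated library, against 226.5, 243.0 and 313.1 CPM in the controls. The groups did not overlap, and control replicate 3 was the highest library. Abcc5 fell by 0.57 ± 0.09 on the log2 scale, and without control replicate 1 the fall was larger, at -0.67 with an adjusted p of 0.0168 in edgeR.

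Ccr3, an eotaxin receptor, had 53.4 to 90.7 CPM in treated libraries against 103.0 to 140.2 CPM in controls, and a log2 fold change of -0.71 ± 0.18. The chemokine-like Cklf stood at -0.71 ± 0.11, with 11.4 to 18.3 CPM in treated libraries against 22.5 to 26.6 CPM in controls. Among the leukocyte receptors of the Cd300 family, Cd300lf stood at -0.44 ± 0.07 and the low-count Cd300lb at -1.33 ± 0.31, with 0.591 to 2.38 CPM in treated libraries against 2.54 to 4.98 CPM in controls. Members of this family resemble each other, and reads could be split between them. All 4 genes were called lower with no overlap between the groups, and without control replicate 1 their adjusted p in edgeR ran from 0.0767 for Cklf to 0.227 for Ccr3.

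The annotation's Dux4, a member of a multicopy family of homeobox genes whose counts are uncertain for that reason, had 9.34, 14.8 and 18.9 CPM in the lowest, median and highest treated library, against 32.8, 24.4 and 32.0 CPM in the controls. The groups did not overlap, and the log2 fold change was -1.06 ± 0.16. Enpp6, a choline-specific phosphodiesterase that marks newly formed oligodendrocytes, had 12.4, 19.1 and 26 CPM in the lowest, median and highest treated library, against 32.0, 37.8 and 32.3 CPM in the controls, with a log2 fold change of -0.88 ± 0.16. Of 17 oligodendrocyte markers, 2 were called lower, Enpp6 and Aspa at -0.38, and none higher, where 1.77% of all genes were called lower. Most of that list lay the other way, with 12 of 17 positive and a median of 0.15. Without control replicate 1 the adjusted p in edgeR was 0.101 for both Dux4 and Enpp6.

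Genes for splicing and nuclear speckle proteins accounted for 23 of the 248 falls. Rsrp1, an arginine- and serine-rich nuclear protein, had 62.2, 89.0 and 107.1 CPM in the lowest, median and highest treated library, against 142.9, 137.8 and 119.4 CPM in the controls, with no overlap and a log2 fold change of -0.66 ± 0.11. Leng8 stood at -0.79 ± 0.19, the splicing factor Luc7l3 at -0.53 ± 0.11, Arglu1 at -0.51 ± 0.09 and the RNA helicase Ddx39b at -0.49 ± 0.09, and all 4 were called lower. In a list of 63 splicing and speckle genes that was chosen after values had been seen, 23 were called lower and none higher, where 1.77% of all genes were called lower. The list's median log2 fold change was -0.25 against -0.01 over all genes, and 59 of its 63 members were negative. Because the list was chosen in that way, its count and median describe it and cannot test it. Without control replicate 1 none of the 63 was called, with a median still between -0.31 and -0.23 whichever single library was left out. The list held 2 calls without control replicate 3 or without replicate 1 of the 125 M dose, 6 without replicate 2 of the 50 M dose and 13 without replicate 3 of the 125 M dose.

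Bsg, or basigin, a membrane glycoprotein that chaperones lactate transporters and is abundant in brain vessel walls, was the steadiest of the genes called higher. It had 699.5, 831.2 and 1132 CPM in the lowest, median and highest treated library, against 537.0, 615.0 and 591.3 CPM in the controls. All treated libraries lay above all controls. The log2 fold change was 0.56 ± 0.09 with an adjusted p of 0.0236 in edgeR, and without control replicate 1 it was 0.50 at an adjusted p of 0.101. Tubb6, a β-tubulin, had 12.7, 16.1 and 21.0 CPM in treated libraries against 6.80, 9.57 and 7.74 CPM in the controls. It did not overlap either, at 1.02 ± 0.16 with all controls, and without control replicate 1 it stood at 0.90 with an adjusted p of 0.101 in edgeR. Crip2, a LIM domain protein found in vascular cells, had 42.7, 51.1 and 76.8 CPM in treated libraries against 26.2, 33.1 and 29.1 CPM in the controls, and was called higher at 0.90 ± 0.15, and without control replicate 1 it stood at 0.81 with an adjusted p of 0.106 in edgeR.

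Cldn5, the tight junction protein of brain endothelium, had 254.8, 348.8 and 537.3 CPM in the lowest, median and highest treated library, against 176.7, 221.4 and 174.1 CPM in the controls. The groups did not overlap, and the log2 fold change was 0.91 ± 0.17 with an adjusted p of 0.0298 in edgeR. The call was lost when single libraries were left out, with an adjusted p of 0.126 for control replicate 1, 0.0716 for control replicate 3, 0.0536 for replicate 1 of the 125 M dose and 0.0511 for replicate 2 of the 50 M dose. Cldn5 was the 1 gene called among 13 endothelial markers tested, where 1.83% of all genes were called higher, and 12 of the 13 were positive with a median of 0.61. The endothelial count was 0 when any 1 of these 4 libraries was left out, 3 without control replicate 2, 6 without replicate 2 of the 20 M dose, 7 without replicate 2 of the 125 M dose and 5 with DESeq2.

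Genes of the extracellular matrix, the protein scaffold laid down largely by fibroblasts and vessel wall cells, were among the largest rises. Col6a2, a chain of collagen VI, had 22.1, 40.8 and 52.7 CPM in the lowest, median and highest treated library, against 12.1, 21.8 and 12.8 CPM in the controls, with a log2 fold change of 1.29 ± 0.26, or 1.13 (adjusted p 0.141 in edgeR) without control replicate 1. The lowest treated library was only just above control replicate 2. Its partner chain Col6a1 was called higher at 1.24 ± 0.24, and the fibrillar collagen Col3a1 at 0.95 ± 0.22, both with overlapping groups, and neither was called without control replicate 1. The matrix glycoprotein Fbln2 had 24.8 to 70.7 CPM in treated libraries against 13.97 to 20.52 CPM in controls, and a log2 fold change of 1.34 ± 0.31, or 1.23 (adjusted p 0.183 in edgeR) without control replicate 1. Abca8a, a lipid transporter, had 4.77, 12.8 and 18.4 CPM in the lowest, median and highest treated library, against 2.19, 2.79 and 3.51 CPM in the controls, and at 2.07 ± 0.46 had the largest fold change of the genes chosen by the naming rule. Without control replicate 1 Abca8a stood at 1.90 with an adjusted p of 0.165 in edgeR.

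Of 29 matrix and adhesion genes tested, 7 were called higher (Col3a1, Col6a1, Col6a2, Dcn, Lamb2, Mmp14 and Nid2) and none lower, where 1.83% of all genes were called higher. The median log2 fold change of the list was 0.88 and 26 of 29 were positive. The summed level of its members was not higher in treated libraries. It ran from 14230 to 16240 CPM there (median 15850) and from 15000 to 16960 CPM in controls (median 16730). Of 10 fibroblast markers 5 were called higher (Col3a1, Dcn, Igf2, Islr and Slc6a13), with a list median of 0.95. Col3a1 and Dcn are in both lists, so the 2 counts overlap. Of 12 mural cell markers 2 were called higher, Vtn at 0.99 and the potassium channel Kcnj8 at 0.98, with a median of 0.87. Of 28 genes of transforming growth factor β and bone morphogenetic protein signalling, 3 were called higher and none lower. These were Id1 at 0.64 and Id3 at 0.75, which are inhibitors of DNA binding induced by bone morphogenetic proteins, and the endothelial receptor Acvrl1 at 0.52. The fibroblast, mural and signalling calls each became 0 without control replicate 1, as without control replicate 3, replicate 1 of the 20 M dose, replicate 2 of the 50 M dose, or replicate 1 or 3 of the 125 M dose, and they were 9, 7 and 5 without replicate 2 of the 125 M dose. The 7 matrix calls became 0 without control replicate 1, control replicate 3, replicate 2 of the 50 M dose or replicate 1 of the 125 M dose. They became 2 without replicate 1 of the 20 M dose or replicate 3 of the 125 M dose, 3 without replicate 1 of the 50 M dose, 15 without replicate 2 of the 20 M dose and 18 without replicate 2 of the 125 M dose, while the list's median stayed between 0.72 and 1.02.

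**Figure D3:**
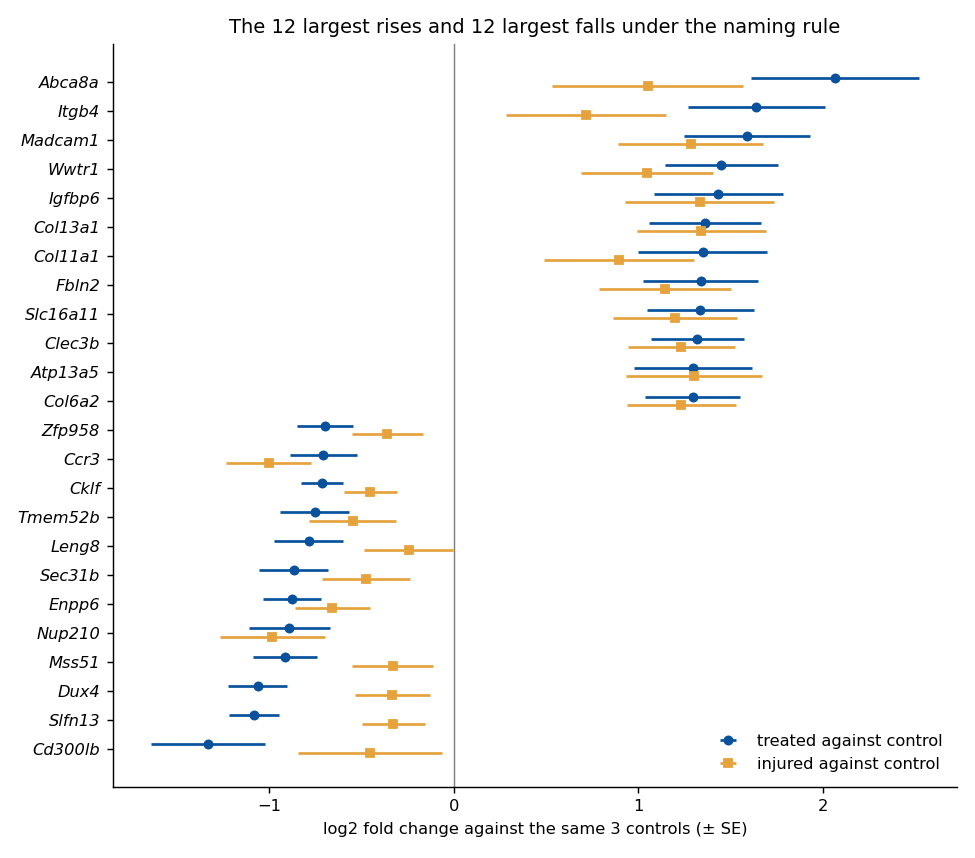
Log2 fold change with its standard error for the 12 largest rises and 12 largest falls chosen by the naming rule, for treated libraries (blue circles) and injured libraries (orange squares) against the same 3 control libraries. The treated values run from 2.07 for Abca8a to -1.33 for Cd300lb, and because the controls are shared the 2 sets are not independent.

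The marker sums of vessel and connective tissue cells include genes just described, such as Cldn5, Col3a1, Vtn and Kcnj8. They are therefore not evidence separate from those rises. The summed level of endothelial markers was 1717, 2269 and 2909 CPM in the lowest, median and highest treated library, against 1448, 1644 and 1660 CPM in the controls, with no overlap. Mural cell markers summed to 395.2, 684.3 and 1038 CPM in treated libraries against 344.6 to 556.4 CPM in controls, and fibroblast markers to 374.6, 646.3 and 817.6 CPM in treated libraries against 258.6 to 415.2 CPM in controls, both with overlap. The fibroblast markers Col1a2 and Ogn had no count in any of the 15 libraries of the run. Replicate 1 of the 20 M dose and replicate 3 of the 125 M dose had the highest endothelial sums, 2909 and 2843 CPM. Leaving out these 2 and control replicate 1 together, chosen after seeing the data, left 5 calls in all, none of a matrix or vessel marker. Omitting control replicate 1 alone had already left 4 calls, none of them a matrix or vessel marker. The part of the 2 treated libraries can therefore not be read from this. Astrocyte, ependymal and choroid plexus, and oligodendrocyte precursor markers lay the same way, although none of them was called by edgeR. Of 16 neuron markers 12 were positive, with a median of 0.33 and none called. Among oligodendrocyte markers the 2 calls, given above, were lower. Of 12 astrocyte markers 11 were positive, with a median of 0.60 and 7 at an unadjusted p under 0.05, and they summed to 800.8 to 1350 CPM in treated libraries against 887.4 to 962.4 CPM in controls. Of 11 ependymal and choroid plexus markers all were positive, with a median of 0.76 and 6 at an unadjusted p under 0.05, and they summed to 2804 to 9544 CPM in treated libraries against 1614 to 4210 CPM in controls. Of 10 oligodendrocyte precursor markers 9 were positive, with a median of 0.59 and 4 at an unadjusted p under 0.05. That list shares Pdgfra with the fibroblast markers and Cspg4 with the mural markers. Of 31 immediate early and dissociation response genes 25 were positive, with a median of 0.21, 11 at an unadjusted p under 0.05 and none called. The part of all these markers in the rises was not tested.

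**Figure D4:**
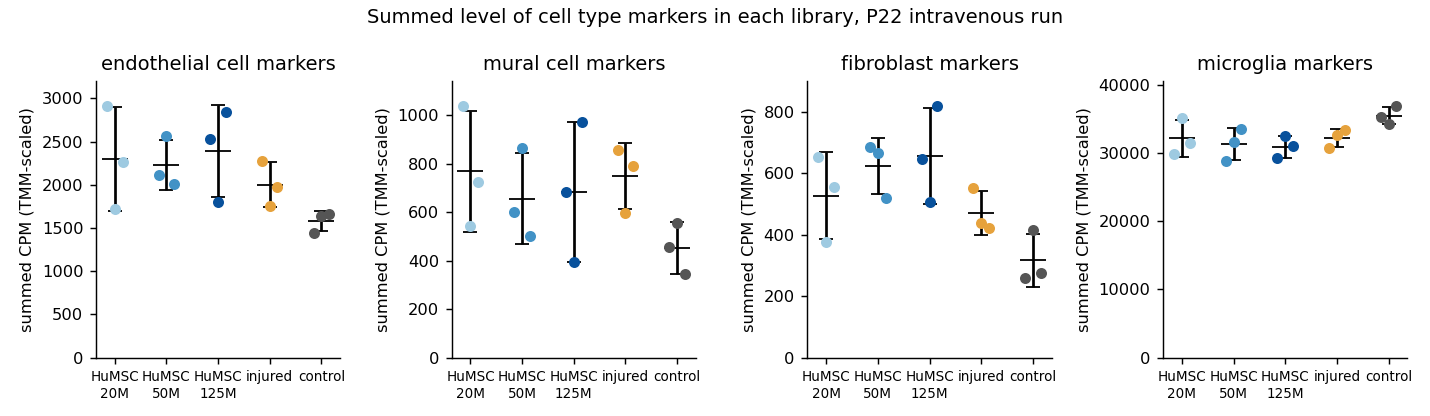
Summed CPM of markers of 4 cell types in each library (axis from 0), with points for libraries and each group's mean and SD (n = 3 a group). Endothelial sums of the treated libraries lie between 1717 and 2909 CPM, above all 3 controls. Microglial sums overlap, with medians of 31410 CPM in treated and 35290 CPM in control libraries.

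Genes that mark resting microglia did not pass the test. None of 24 homeostatic microglia genes was called by edgeR, 7 had an unadjusted p under 0.05 and DESeq2 called 2 lower. Their median log2 fold change was -0.14 and 19 of 24 were negative. Of the 10 microglia markers summed near the beginning, 9 were negative, with a median of -0.16 and 3 at an unadjusted p under 0.05. None of the 10 was called by edgeR, and DESeq2 called 2 lower. P2ry12, the purine receptor that steers microglial processes, had 1429, 1765 and 2005 CPM in the lowest, median and highest treated library, against 2180, 1661 and 2399 CPM in the controls, with overlap and a log2 fold change of -0.27 ± 0.12. Tmem119 stood at -0.15 ± 0.19, the fractalkine receptor Cx3cr1 at -0.03 ± 0.10 and the growth factor receptor Csf1r at -0.15 ± 0.07.

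Il1b, the gene of the cytokine injected for the injury, had 59.6, 102.3 and 228 CPM in the lowest, median and highest treated library, against 121.3, 95.0 and 60.9 CPM in the controls, at 0.22 ± 0.27. The prostaglandin-forming Ptgs2 stood at 0.36 ± 0.24, the cytokine signalling brake Socs3 at 0.71 ± 0.30 with an adjusted p of 0.151 in edgeR, Mrc1 at 0.03 ± 0.16, Igf1 at -0.20 ± 0.10, Spp1 at -0.39 ± 0.28 and Apoe at 0.17 ± 0.19. Of 28 inflammatory cytokines and NF-kB targets 1 was called lower, Il18, and of 29 genes of disease-associated and axon-tract microglia 1 was, the integrin Itgax at -0.75 ± 0.17 with overlapping groups. Cd86, a costimulatory ligand for T cells, was the 1 call among 17 antigen presentation genes, at -0.31 ± 0.07, and Fcer1g, a signalling chain of Fc receptors, the 1 among 24 complement and phagocytosis genes, at -0.33 ± 0.08. These single calls are near the 1.77% of all genes called lower, and all 4 were lost without control replicate 1.

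Set against the controls dose by dose, 4 genes were called at 20 M cells/kg (0.0285% of those tested), 47 at 50 M (0.335%) and 235 at 125 M (1.67%). At the lowest dose Ncoa3 and Casp4 were lower (0.0143%) and Bsg and Hrct1 higher (0.0143%). At the middle dose 43 genes were lower (0.306%) and 4 higher (0.0285%), and at the highest dose 98 were lower (0.698%) and 137 higher (0.976%). An unadjusted p under 0.05 was reached by 20.2%, 22.9% and 24% of genes from the lowest to the highest dose, and DESeq2 called 642, 989 and 1234 genes. The steady genes were chosen for a difference in the mean over these same doses, so a shared sign at each dose was largely built in. Those shown here had the same sign at each dose, and Bsg varied most in size. Casp4 stood at -0.49, -0.56 and -0.59 at 20, 50 and 125 M cells/kg, Slfn13 at -0.998, -1.04 and -1.21, Tubb6 at 1.04, 1.01 and 1.01 and Bsg at 0.75, 0.36 and 0.58. Without control replicate 1, edgeR called 0 genes at 20 M, 0 at 50 M and 2 at 125 M. Over all single omissions its counts ran from 0 to 164 at 20 M, 0 to 122 at 50 M and 1 to 571 at 125 M.

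The doses themselves differed for 1 gene in a joint test (0.00713% of those tested), while 2403 genes (17.1%) had an unadjusted p under 0.05. The gene was Ncoa3, a coactivator of nuclear hormone receptors, with an adjusted p of 0.00428 in edgeR. Other tools gave far more, with 544 genes by DESeq2 and 594 by limma voom with sample weights. Its level was 242.3 ± 13.5 CPM at 20 M cells/kg, 446.9 ± 14.5 CPM at 50 M, 370.7 ± 27.0 CPM at 125 M and 398.5 ± 38.8 CPM in controls (SD, n = 3 each). Ncoa3 was called against control at the lowest dose, at -0.72 ± 0.09, and not at the others, with 0.17 ± 0.09 at the middle and -0.10 ± 0.09 at the highest dose. That call against control was lost without control replicate 1. Injured libraries had 232.2 ± 14.4 CPM. The joint call was lost when any 1 library of the lowest dose was left out, and 83 genes were called without replicate 3 of the 125 M dose.

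Injured libraries, which had IL-1β but no cells, were set against the same 3 controls, so their values and those of the treated libraries are not independent. Injured against control called 1 gene, Ncoa3 (0.00713% of those tested), with 14.8% at an unadjusted p under 0.05. Casp4 stood at -0.55 ± 0.06 in treated and -0.34 in injured libraries, with 69.0, 68.8 and 70.7 CPM in the injured. Slfn13 stood at -1.08 in treated and -0.33 in injured libraries, Il18 at -0.66 and -0.33, Casp1 at -0.29 and -0.03, Ifi44 at -0.59 and -0.15, and Dux4 at -1.06 and -0.33. Among the rises, Bsg stood at 0.56 in both, Tubb6 at 1.02 in treated and 0.88 in injured libraries, and Col6a2 at 1.29 and 1.23. The matrix list had a median of 0.88 in treated and 0.54 in injured libraries, the fibroblast list 0.95 and 0.71, the mural list 0.87 and 0.89, the endothelial list 0.61 and 0.40, and the growth factor signalling list 0.21 and 0.05.

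The same contrast was available in 2 other runs with their own controls, the intranasal run at P22 and the intravenous run in which cells were given at P10 and tissue taken at P12. Of the 505 genes, 497 were tested in the intranasal run and 387 of them (77.9%) had the same sign there, against 58.8% of all genes tested in both. None of the 497 was called there with that sign, and the intranasal run called 1 of 13594 genes in all. In the P12 run 178 of 499 (35.7%) had the same sign, against 46.1% of all. Of the 499, 8 were called there with the same sign, and that run called 346 of 13874 genes (2.49%). Sizes in the intranasal run were smaller for most genes shown, with Casp4 at -0.15, Slfn13 at -0.13, Il18 at -0.09, Bsg at 0.00 and Tubb6 at 0.07, whereas Cklf stood at -0.68. A test of the difference between the 2 routes at P22 called 0 of 14184 genes (0%) in edgeR. An unadjusted p under 0.05 was reached by 1284 genes (9.05%), and DESeq2 called 17. The difference between the intravenous runs at P22 and P12 was called for 957 of 14405 genes (6.64%), and for 12 to 51 when 1 replicate number was left out of all groups. Slfn13 stood at -1.08 at P22 and 0.44 at P12, a difference of -1.51 with an adjusted p of 0.00255 in edgeR. Il18 stood at -0.66 and 0.19, a difference of -0.85 with an adjusted p of 0.00635. Casp4 was negative at both ages, at -0.55 and -0.25, and its difference of -0.28 had an adjusted p of 0.123. Age, run and sequencing cannot be told apart in these differences.

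**Figure D5:**
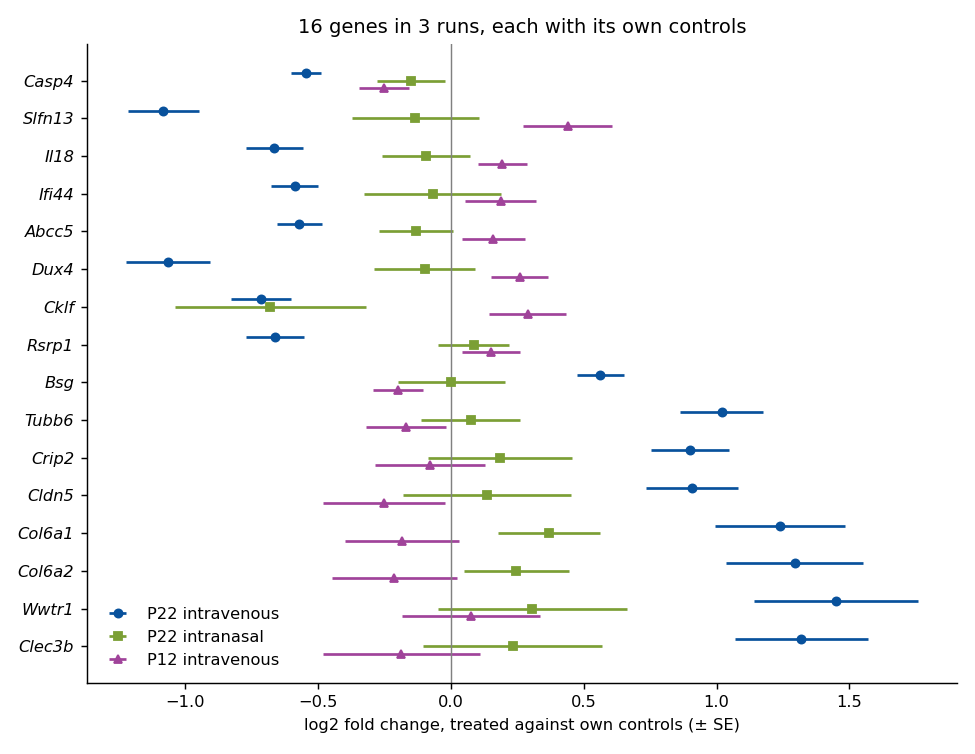
Log2 fold change with its standard error of treated against each run's own control libraries, for 16 genes in the P22 intravenous run (blue circles), the P22 intranasal run (green squares) and the P12 intravenous run (purple triangles). Casp4 is negative in all 3 runs, at -0.55, -0.15 and -0.25, while Slfn13 and Il18 are negative at P22 and positive in the P12 run.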

How the data were processed

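RNA sequencing was done on polyadenylated RNA with a strand-specific kit and single 75-base reads, per the labels' protocols. The values are raw counts per gene deposited by the authors, and the submitters' processing notes name HTSeq 0.5.3, DESeq2 1.8.1 and STAR 2.7.2d beside SAMtools. The genome build, the annotation, the strand setting of the counting and the treatment of reads shared between near copies are not given in the sources used here. Read sharing can move counts between members of gene families, and TMM scaling fixes the level that all changes are relative to.

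Genes were filtered with edgeR 4.0.16 (filterByExpr, minimum count 10, minimum total 15), scaled by TMM and fitted by the quasi-likelihood method with 1 mean for each of the 5 groups of 3 libraries of the run. The contrast was the mean of the 3 dose groups minus the control group, and genes were called at a Benjamini-Hochberg adjusted p under 0.05. Standard errors were derived from the log2 fold change and its F statistic. R was 4.3.3. The tests were tried on simulated data first. Alternatives used limma 3.58.1 (voom) and DESeq2 1.42.0, other scalings and filters, a replicate block, other fits and the omission of each library. Each of the other runs was fitted alone in the same way for its log2 fold changes and calls. For the differences between runs, its libraries and the P22 intravenous libraries were fitted together, and the contrast was the difference of the treated minus control differences. Such a difference can therefore depart slightly from that of the separately fitted values.

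Named genes are the 12 largest rises and 12 largest falls that were called, averaged a log2 CPM of 1 or more, carried an established symbol and showed no overlap between groups, then up to 4 genes of each list by p, and a fixed set of microglial genes. Other printed genes, among them Casp1, Mefv, Naip2, Ifi44, Trim5, Crip2, Cd300lf, Abcc5, Arglu1, Luc7l3, Ddx39b, Nlrp3, Gsdmd, Pycard, Mapk8ip3, Lmln2 and Il34, were picked with their values in view. The members and lists were chosen with earlier results of these data known. Of 691 listed genes, 657 matched by symbol, 9 by synonym and 25 not at all. The precision is limited by 3 control libraries.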

Additional observations from a re-analysis of the deposited data

Results flagged for a closer look

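Within the 9 treated libraries, 1 library lay far from the others for 3 of 66 genes examined and for 0 of 17 marker lists, where chance flags about 1 group in 20. Id3 was at 33.11 CPM in replicate 1 of the 20 M dose, with the next library at 23.28 CPM, a gap of 0.56 of the group's range. Il34, a ligand of the microglial growth factor receptor, was at 16.91 CPM in that same library, with the next at 12.42 CPM and a gap of 0.50 of the range. Il1b was at 228.0 CPM in replicate 2 of the 125 M dose, with the next at 144.5 CPM and a gap of 0.496 of the range.

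Treated against control differed between the intravenous runs at P22 and P12, by an interaction test in edgeR, for 31 of the 66 genes. Over all genes tested the share was 6.64%. Many of the 66 were picked for a difference in the same P22 libraries, so a high share among them was partly built in. The values here are the P22 minus the P12 log2 fold change. Among immune genes the difference was -1.51 for Slfn13, -0.85 for Il18, -0.47 for Naip2, -0.76 for Ifi44, -0.51 for Trim5, -0.99 for Cklf and -1.32 for Il1rn. Unlike the others, Il1rn was not called at P22, where it ran from -0.50 to 0.17 over the 25 alternatives. It was -0.72 for Abcc5, -1.31 for Dux4 and -1.24 for Mss51. Among genes of RNA processing it was -0.87 for Leng8, -0.80 for Rsrp1, -0.53 for Luc7l3 and -0.56 for Ddx39b. Among matrix and connective tissue genes it was 1.44 for Col6a1, 1.52 for Col6a2, 1.16 for Col3a1, 1.503 for Fbln2, 1.52 for Clec3b and 1.71 for Igfbp6. Among vessel-related genes it was 0.78 for Bsg, 1.17 for Cldn5, 1.00 for Crip2, 1.33 for Vtn and 1.18 for Kcnj8. It was 0.87 for Id1, 1.12 for Id3, 1.39 for Wwtr1, 1.21 for Tubb6, 1.12 for Lcn2 and 1.49 for Il34. Over all genes the number of such calls fell to between 12 and 51 when 1 replicate number was left out of all groups, against 957 with all libraries. The doses at P22 differed for Ncoa3, which stood at -0.72 against control at 20 M cells/kg.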

How the results depend on the processing

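The 505 calls between treated and control libraries became 23 with total count scaling, 1549 with DESeq2, 7 with voom, 64 with a replicate block, 2 with only the groups compared, 800, 71 and 4 without all libraries of the 20, 50 and 125 M doses, and 5 without 3 libraries chosen after seeing the data. Without single libraries they ran from 4 to 1043. At 20 M cells/kg the 4 calls became 57 with no filter, 642 with DESeq2, 1 with voom, 0 with the block and 2 with only the groups compared, and 0 to 164 without single libraries. At 50 M the 47 became 0 with total counts, 119 with no filter, 989 with DESeq2, 2 with voom, 0 with the block and 0 with only the groups compared, and 0 to 122 without single libraries. At 125 M the 235 became 1 with total counts, 408 with no filter, 1234 with DESeq2, 61 with voom, 0 with the block and 1 with only the groups compared, and 1 to 571 without single libraries. Where no gene was called by edgeR at a dose, 1489 to 3268 genes had an unadjusted p under 0.05. The 1 gene that differed among doses became 3 with no filter, 544 with DESeq2 and 594 with voom, and 0 to 83 without single libraries. The difference between routes ran from 0 to 1, with 17 in DESeq2, and that between ages was 1493 with DESeq2 and 12 to 51 without 1 replicate number. Rpph1, at -4.26, ran from -4.83 to 0.164 without single libraries, positive without control replicate 1, and was 0.0157 without the 3 libraries. No pairing of libraries by replicate number was seen: of 30 same-numbered pairs, 6 had deviations correlated above 0.1, and 4 of 15 libraries were closest to their own number. The correlations ran from -0.288 to 0.316. With 3 libraries a group, this check cannot exclude pairing of some libraries. Over 2649 repeats of 106 called named genes, 1373 kept the call, 1274 lost it and 2 reversed. The causes were not tested.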

Other observations

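Small noncoding RNAs with Rfam names formed a separate block of falls. Of 94 tested, 23 were called lower and none higher, where 1.77% of all genes were called lower. Control replicate 1 was the highest of the 15 libraries for 15 of the 23. Without it none of the 94 was called by edgeR, and 17 of the 23 were still negative. Some held under most other alternatives: 2 entries of RF00016 were called in 22 and 21 of the 25, and RF00055 in 21. Of the entries named RF00016, 2 were among the 5 genes called when control replicate 1 and 2 treated libraries were left out together, with adjusted p of 0.0358 and 0.0464 in edgeR. Rpph1, the RNA of ribonuclease P, had 0.380, 1.19 and 6.96 CPM in the lowest, median and highest treated library, against 78.6, 1.82 and 0.722 CPM in control replicates 1 to 3, so its log2 fold change of -4.26 rested on 1 library. These RNAs carry no poly(A) tail as a rule, and the libraries were made from polyadenylated RNA.

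Fkbp5, a co-chaperone induced by glucocorticoids, had 14.5, 22.6 and 16.7 CPM at 20 M cells/kg, 148.8, 63.7 and 61.2 CPM at 50 M, 63.2, 126.3 and 71.0 CPM at 125 M, and 102.3, 154.8 and 33.0 CPM in controls. The lowest dose lay below all other treated and control libraries, at -2.43 ± 0.48 against control, and the joint test of doses had an adjusted p of 0.107 in edgeR. Red blood cell markers summed to 29.6 to 840.9 CPM in treated libraries and 140.1 to 2404 CPM in controls, the highest in control replicate 1, and none of 5 tested was called. Mast cell markers summed to 35.8 to 146.6 CPM in treated libraries and 34.5 to 46.0 CPM in controls.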
